A study of Mus musculus with 6 samples.

Results

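Cholesterol in the brain is made in place, because lipoproteins of the blood do not cross the blood-brain barrier. Its synthesis runs from acetyl-CoA through mevalonate and squalene to sterols, and is adjusted by SREBP2, a transcription factor that the chaperone SCAP carries out of the endoplasmic reticulum when sterols are low and that INSIG proteins hold back when sterols are plentiful. Glia, the Bergmann glia of the cerebellum among them, pass cholesterol to neurons on particles of apolipoprotein E, and neurons dispose of the excess by hydroxylating it. The genes described here are the 29 named members of this system found in the deposited table of 55098 genes: 4 regulators, 6 enzymes of the mevalonate arm, 11 enzymes of the squalene and sterol arm, 4 genes of efflux and the liver X receptor, and 4 genes of hydroxylation, lysosomal egress and esterification. They were chosen by name, and all 29 had counts in all 6 libraries and passed the filter on low counts.

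Bulk RNA of the cerebellum, taken whole at postnatal day 60, was sequenced from male mice: 3 animals labelled Slc39a14 wildtype (WT 1, 3 and 5) and 3 labelled Slc39a14 knock-out (KO 2, 4 and 6), 1 library each. Slc39a14 encodes ZIP14, a transporter of manganese and other metals, and the series presents the knock-out as a mouse model of manganese-induced dystonia parkinsonism of childhood. No treatment, diet or strain is named in the labels, and the tissue is bulk, so that fewer cells of a type and less RNA per cell cannot be told apart. The libraries held 13805997 to 15788135 counts. Slc39a14 itself measured 42.2, 41.2 and 43.9 CPM in WT 1, 3 and 5, against 41.1, 39.9 and 46.0 CPM in KO 2, 4 and 6 (log2 fold change -0.0035, SE 0.11, 95% interval -0.24 to 0.23). Its counts therefore did not check the genotype labels, on which every direction given here rests. Markers of granule and Purkinje cells were counted in every library (14 and 16 listed, none at 0). Along the first principal component of 1000 genes (29.6% of their variance) WT 5 (25.9) and KO 4 (15.4) stood apart, the remaining 4 running from -15.2 to -4.79, and values are therefore given library by library.

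The promoters of 4 enzyme genes are shown because their transcripts were highest in the same 2 libraries (Hmgcs1, Idi1 and Cyp51) or lowest in them (Mvk), while all 4 windows hold CCAAT. Each window runs from 250 bases before to 50 after the RefSeq start in GRCm38.p6. Windows were found for 24 of the 29 genes, not for Fdps, Fdft1, Sqle, Abcg1 and Npc1. Capitals mark 1 form of the sterol element, TCACNCCAC, to which SREBP binds, and the NF-Y motif CCAAT. Both were sought on either strand (CCAAT on the other strand reads ATTGG). The marked motifs do not overlap one another.
Hmgcs1 (chr13:119690101-119690400, plus strand): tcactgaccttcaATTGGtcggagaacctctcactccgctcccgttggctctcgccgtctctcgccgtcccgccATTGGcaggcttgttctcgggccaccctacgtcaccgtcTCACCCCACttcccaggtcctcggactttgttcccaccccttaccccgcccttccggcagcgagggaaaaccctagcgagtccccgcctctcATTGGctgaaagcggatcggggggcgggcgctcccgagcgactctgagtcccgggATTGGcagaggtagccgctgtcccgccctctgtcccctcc
Idi1 (chr13:8885356-8885655, plus strand): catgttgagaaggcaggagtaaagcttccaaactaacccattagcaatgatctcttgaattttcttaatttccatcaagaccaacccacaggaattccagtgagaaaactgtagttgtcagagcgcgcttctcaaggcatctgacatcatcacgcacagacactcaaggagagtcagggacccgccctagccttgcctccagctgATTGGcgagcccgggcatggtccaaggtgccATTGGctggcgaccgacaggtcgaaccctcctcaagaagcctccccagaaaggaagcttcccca
Cyp51 (chr5:4104648-4104947, minus strand): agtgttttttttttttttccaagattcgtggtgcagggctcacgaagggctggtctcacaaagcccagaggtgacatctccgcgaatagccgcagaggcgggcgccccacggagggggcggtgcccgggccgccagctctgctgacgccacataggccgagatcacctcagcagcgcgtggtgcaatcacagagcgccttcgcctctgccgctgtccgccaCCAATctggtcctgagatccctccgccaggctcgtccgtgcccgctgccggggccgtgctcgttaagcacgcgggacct
Mvk (chr5:114444019-114444318, plus strand): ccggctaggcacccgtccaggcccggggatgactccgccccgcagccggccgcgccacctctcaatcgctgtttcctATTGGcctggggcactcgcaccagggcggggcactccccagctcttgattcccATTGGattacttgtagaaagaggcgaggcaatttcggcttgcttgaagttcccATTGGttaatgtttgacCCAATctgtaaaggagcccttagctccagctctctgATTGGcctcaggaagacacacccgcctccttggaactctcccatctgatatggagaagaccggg

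The Hmgcs1 window held 1 sterol element and 4 CCAAT motifs, that of Idi1 2, that of Cyp51 1 and that of Mvk 5 CCAAT motifs. CCAAT occurred in the windows of all 14 enzyme genes that had one (14 of 17 windows, since some genes have several starts), against 37.4% of 32851 windows of all genes. The Sp1 motif GGGCGG was in 14 of these 17 windows and in 35.7% of all. The E-box CACGTG, which reads the same on both strands, was in 3 of 17 and in 7.15% of all. TCACNCCAC was in that of Hmgcs1 alone among 32 windows of the 29 genes (1.24% of all windows), and the liver X receptor repeat, 2 copies of AGGTCA spaced by 4 bases on either strand, was in none of them (5 of all windows). These matches are of letters and do not show binding. Other forms of the motifs were not searched, so a window without a match is not shown to lack a sterol element.

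No difference between KO and WT was detected in any of the 29 genes. By edgeR's quasi-likelihood test with Benjamini-Hochberg adjustment over 17142 genes, 0 of 29 passed an adjusted p of 0.05 (0.0467% of all genes tested passed), and 0 of 29 had an unadjusted p under 0.05 (2.75% of all genes). DESeq2 and limma-voom also gave 0 of 29 at the adjusted threshold (0.119% and 0.0467% of all genes) and at the unadjusted one (1.40% and 2.92%). The DESeq2 shares are over 32040 genes, without the filter on low counts, and those of limma-voom over the same 17142 genes as edgeR. The DESeq2 shares are therefore not directly comparable with the others. Of the 29, 0 passed in the authors' deposited table (0.128% of the genes with a value there did), with log2 fold changes of -0.19 to 0.31 and p-values of at least 0.257. In no gene did the 3 KO libraries all lie above the 3 WT libraries (3.58% of all genes tested) or all below them (3.68%). Of the 29 fold changes 12 were positive and 17 negative, with a median of -0.042 on the log2 scale, beside -0.0036 and 48.8% positive over all genes tested.

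The 95% interval of the log2 fold change lay within -1 to 1 for 28 of 29 genes, all but Fdps, and within -0.5 to 0.5 for 24. The exceptions to the narrower bound were Srebf1, Hmgcs1, Mvk, Idi1 and Fdps. Over all genes tested the wider bound held for 13794 and the narrower for 9074. The plot of fold changes shows the intervals by role.

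**Figure D1:**
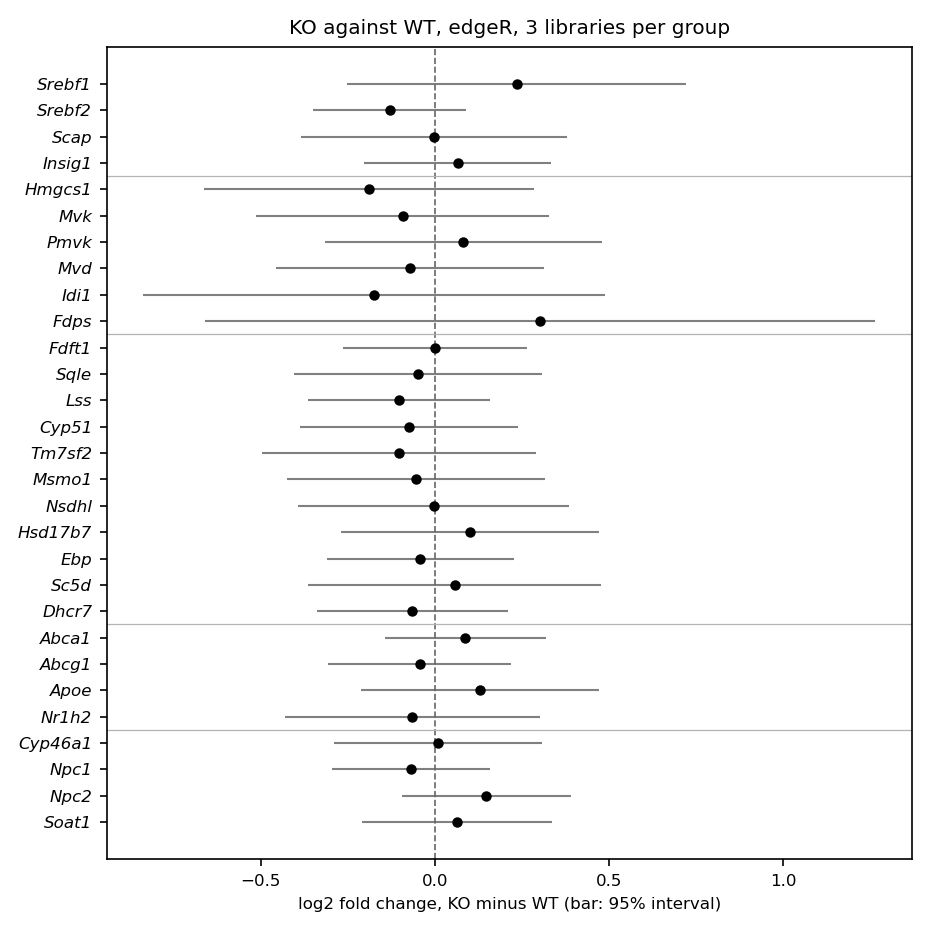
Log2 fold change of each of the 29 genes, KO minus WT, as points with 95% intervals from edgeR (3 libraries per group); grey lines part the 5 roles, from regulators at the top to turnover at the bottom. Every interval includes 0, and that of Fdps, -0.66 to 1.26, is the widest.

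Per kilobase, the levels of the 29 genes spanned a wide range. Apoe, the carrier of glial cholesterol, stood at 349 ± 57.9 FPKM (SD over 6 libraries), counts scaled by the authors to gene length and depth. Next came Abcg1, a transporter that loads lipid onto particles, with 25.6 ± 2.45 FPKM, Hmgcs1 with 24.3 ± 6.41 and Nr1h2 with 20.4 ± 3.26, and these neighbours overlapped in range. Among the enzymes Hmgcs1, Sc5d (16.3 ± 3.26 FPKM) and Cyp51 (11.4 ± 1.57 FPKM) were the highest. Lss, Hsd17b7, Tm7sf2, Dhcr7, Nsdhl and Mvk had means of 3.65 to 4.65 FPKM, and their ranges overlapped as well. At the bottom was Fdps with 0.192 ± 0.0569 FPKM, far below the enzymes that act before and after it. Its level is uncertain, as said below.

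**Figure D2:**
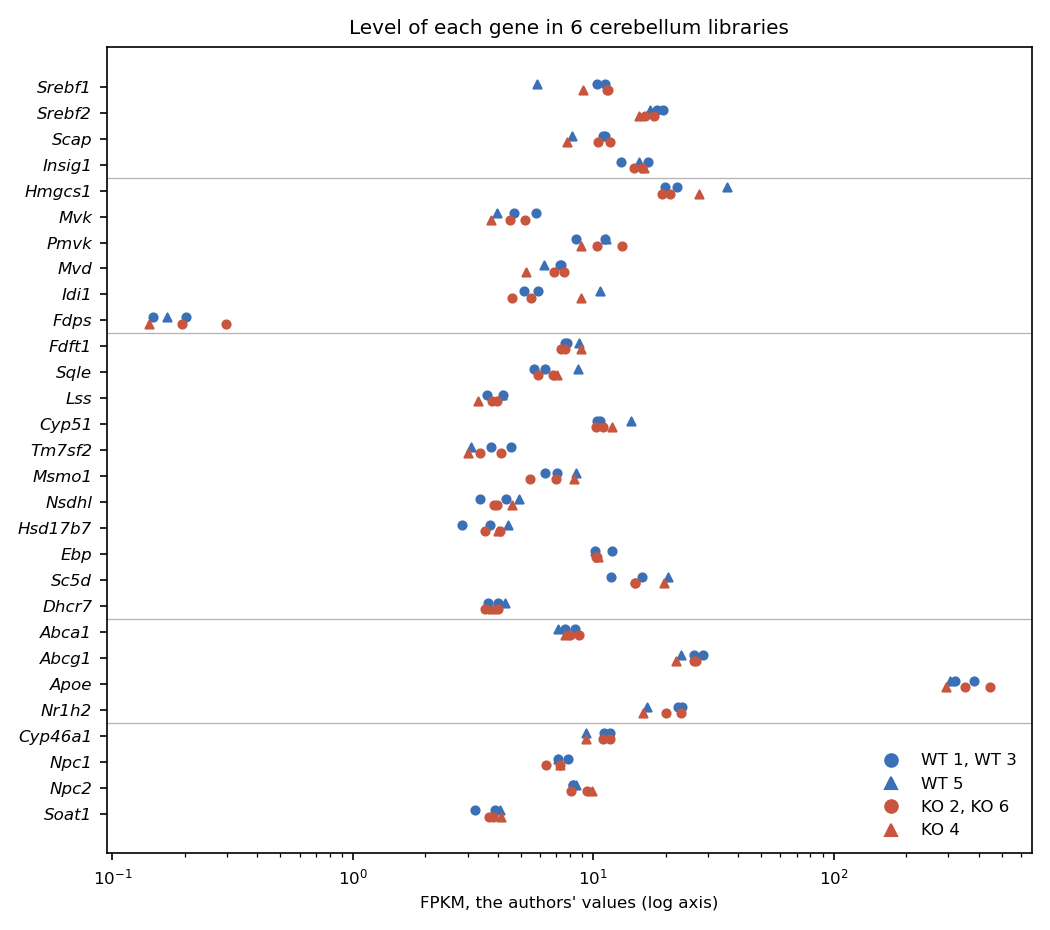
Level of each of the 29 genes in FPKM on a log axis, 1 point per library (blue WT, red KO; triangles are WT 5 and KO 4). Apoe lies between 293 and 446 FPKM and Fdps between 0.142 and 0.297 FPKM, and the WT and KO points overlap in all genes.

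The regulators were examined first. Srebf2 (ENSMUSG00000022463, chromosome 15, 82147181 to 82205379, GRCm38.p6) encodes SREBP2, and was at 147, 138 and 128 CPM in WT 1, 3 and 5, against 125, 118 and 135 CPM in KO 2, 4 and 6. WT 1 was highest and KO 4 lowest, and the groups overlapped, KO 6 lying above WT 5 (log2 fold change -0.13, SE 0.10, 95% interval -0.35 to 0.090; adjusted p = 1.0, edgeR). Srebf1 (ENSMUSG00000020538, chromosome 11, 60199089 to 60222581), whose product SREBP1 drives fatty acid synthesis, was at 61.0, 66.2 and 34.0 CPM in WT 1, 3 and 5, against 67.9, 53.6 and 68.4 CPM in KO 2, 4 and 6. WT 5 stood below the other 5 libraries, and the difference between groups depended on which libraries were kept. The log2 fold change was 0.23 (SE 0.22) with all libraries and -0.0051 without WT 5. It was 0.10 (SE 0.088) without WT 5 and KO 4. With a term for WT 5 and KO 4 in the fit it was 0.27, the single unadjusted p under 0.05 among the 29 genes in any fit (edgeR adjusted p = 0.797). Scap was at 85.6, 87.2 and 62.9 CPM in WT 1, 3 and 5, against 82.6, 60.9 and 91.8 CPM in KO 2, 4 and 6, with WT 5 and KO 4 lowest and almost no difference between the group means (78.6 ± 13.6 CPM for WT against 78.4 ± 15.9 CPM for KO, SD, n = 3 each). Insig1, itself a target of SREBP2, was at 42.2, 54.7 and 49.8 CPM in WT 1, 3 and 5, against 48.3, 53.1 and 52.1 CPM in KO 2, 4 and 6. WT 1 was lowest, WT 3 highest, and the log2 fold change was 0.065 (SE 0.12).

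In the mevalonate arm 2 of 6 fold changes were positive and none passed (median -0.083 on the log2 scale). Hmgcs1 (ENSMUSG00000093930, chromosome 13, 119690379 to 119708260), the synthase that makes HMG-CoA at the entry of the pathway and whose promoter carries the sterol element shown above, was at 108, 95.6 and 171 CPM in WT 1, 3 and 5, against 102, 133 and 93.3 CPM in KO 2, 4 and 6. WT 5 was highest, KO 4 next, and the other 4 libraries lay between 93.3 and 108 CPM in both groups (log2 fold change -0.19, SE 0.21, 95% interval -0.66 to 0.28). The log2 fold change of Hmgcs1 depended on the libraries kept. It was 0.11 without WT 5, -0.35 without KO 4 and -0.058 without both. Idi1 (ENSMUSG00000058258, chromosome 13, 8885501 to 8892451), which isomerizes the isoprene unit, had the same order of libraries, with 21.7, 18.9 and 38.6 CPM in WT 1, 3 and 5, against 20.4, 32.7 and 16.9 CPM in KO 2, 4 and 6. Its highest library was 2.28 times its lowest, the widest spread of the 29. Both extremes of it fell across genotypes: WT 5 and KO 4 high, KO 6 and WT 3 low. The log2 fold change of Idi1 was -0.17 (SE 0.30, 95% interval -0.84 to 0.49). Over the alternative fits described below it ran from -0.49 to 0.21, the latter without WT 5.

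Mevalonate kinase and the decarboxylase went the other way across libraries. Mvk was at 16.3, 13.1 and 11.0 CPM in WT 1, 3 and 5, against 12.7, 10.6 and 14.6 CPM in KO 2, 4 and 6, with KO 4 and WT 5 lowest. Mvd, with KO 4 (10.3 CPM) and WT 5 lowest as well, had means of 13.5 ± 1.27 CPM for WT against 12.8 ± 2.33 CPM for KO (SD; n = 3 each). Their log2 fold changes were -0.093 (SE 0.19) and -0.072 (SE 0.17), within the spread of the replicates. Pmvk, the kinase between them, ran from 15.2 CPM in WT 1 to 23.7 CPM in KO 6 (log2 fold change 0.081, SE 0.18). Fdps, the farnesyl diphosphate synthase, had 9, 14 and 10 counts in WT 1, 3 and 5, against 21, 9 and 12 counts in KO 2, 4 and 6, so few that its interval reached from 0.633-fold to 2.40-fold. A processed pseudogene of Fdps is listed in the table with 0 counts. On its own strand Fdps overlaps the protein-coding gene Gm43738 (1 count over all libraries) and the small nuclear RNA gene Gm22935 (15 counts). The level of Fdps is uncertain, since no source used here says how reads with several matches, or reads in overlapping genes, were counted.

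Of the 11 enzymes from squalene to cholesterol 3 fold changes were positive and 8 negative (median -0.048, lowest -0.10, highest 0.10 on the log2 scale), and all 11 intervals lay within -0.5 to 0.5. Sqle, the epoxidase that commits squalene to sterols, was at 36.8, 33.0 and 49.9 CPM in WT 1, 3 and 5, against 34.6, 41.3 and 39.8 CPM in KO 2, 4 and 6. WT 5 was highest and the groups overlapped (log2 fold change -0.048, SE 0.16). Fdft1, squalene synthase, had means of 35.5 ± 2.29 CPM for WT against 35.5 ± 3.67 CPM for KO (SD over 3 libraries) and a log2 fold change of 4e-05 (SE 0.12). Cyp51, which removes a methyl group of lanosterol, was at 48.2, 49.0 and 65.9 CPM in WT 1, 3 and 5, against 51.3, 55.8 and 47.7 CPM in KO 2, 4 and 6, with WT 5 and KO 4 highest. Sc5d, the desaturase of a late step, was at 81.4, 60.1 and 103 CPM in WT 1, 3 and 5, against 76.4, 101 and 76.5 CPM in KO 2, 4 and 6. There WT 5 and KO 4 were highest and WT 3 lowest (log2 fold change 0.057, SE 0.19, 95% interval -0.36 to 0.48).

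Msmo1, which oxidizes the methyl groups of sterols, was at 45.4, 40.5 and 53.8 CPM in WT 1, 3 and 5, against 45.2, 53.8 and 35.3 CPM in KO 2, 4 and 6. Nsdhl, which acts on its product, had means of 12.5 ± 2.26 CPM for WT against 12.5 ± 1.17 CPM for KO (SD; n = 3 each). In both WT 5 and KO 4 were the 2 highest libraries. Tm7sf2, a sterol reductase, was at 26.6, 22.0 and 18.0 CPM in WT 1, 3 and 5, against 19.9, 17.7 and 24.3 CPM in KO 2, 4 and 6 and showed the reverse, WT 5 and KO 4 being its 2 lowest. Dhcr7, the reductase of the last step, stayed between 21.8 and 25.8 CPM (log2 fold change -0.065, SE 0.12). Ebp, the sterol isomerase, stayed between 24.4 and 28.8 CPM (-0.042, SE 0.12). Lss, which closes the sterol rings, ranged from 37.8 to 47.7 CPM (-0.10, SE 0.12), and Hsd17b7, a ketosteroid reductase, from 15.2 to 23.3 CPM (0.10, SE 0.17).

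Efflux genes did not separate the genotypes either. Apoe (ENSMUSG00000002985, chromosome 7, 19696109 to 19699188) was at 716, 857 and 672 CPM in WT 1, 3 and 5, against 790.5, 661 and 1004 CPM in KO 2, 4 and 6. KO 6 was highest and KO 4 lowest, so that the KO libraries enclosed all WT libraries (log2 fold change 0.13, SE 0.15, 95% interval -0.21 to 0.47). Abca1, the transporter that lipidates apolipoprotein E, was at 82.8, 90.6 and 76.8 CPM in WT 1, 3 and 5, against 87.8, 83.4 and 94.8 CPM in KO 2, 4 and 6 (log2 fold change 0.088, SE 0.10, 95% interval -0.14 to 0.32), and Abcg1 at 112, 122 and 97.9 CPM in WT 1, 3 and 5, against 113, 94.7 and 115 CPM in KO 2, 4 and 6 (log2 fold change -0.044, SE 0.12, 95% interval -0.31 to 0.22). Both are targets of the liver X receptors, and both had overlapping groups. Nr1h2, which encodes liver X receptor beta, was at 79.2, 82.1 and 58.4 CPM in WT 1, 3 and 5, against 71.0, 56.9 and 82.1 CPM in KO 2, 4 and 6, lowest in WT 5 and KO 4 (log2 fold change -0.065, SE 0.16).

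Among the genes of turnover, Npc2, which carries cholesterol inside lysosomes, came with the smallest p of the 29 (unadjusted p = 0.205, adjusted p = 1.0, edgeR). It was at 46.7, 47.0 and 47.9 CPM in WT 1, 3 and 5, against 46.5, 56.3 and 54.1 CPM in KO 2, 4 and 6. KO 4 and KO 6 lay above every WT library and KO 2 below all of them (log2 fold change 0.15, SE 0.11, 95% interval -0.10 to 0.39). Npc1, its partner in the lysosomal membrane, ran from 71.7 CPM in KO 2 to 88.3 CPM in WT 3 (-0.069, SE 0.10). Cyp46a1, the neuronal hydroxylase through which cholesterol leaves the brain, had means of 36.8 ± 4.38 CPM for WT against 37.0 ± 4.26 CPM for KO (SD over 3 libraries; log2 fold change 0.0096, SE 0.13, 95% interval -0.29 to 0.31). Soat1, which esterifies cholesterol for storage, ranged from 33.0 to 42.5 CPM with WT 1 lowest (0.063, SE 0.12). Fdft1, Cyp51, Srebf1 and Npc1 overlap Ctsb, Akap9, Rai1 and Rmc1 on the opposite strand. No source used here gives the strand setting of the counts, so these 4 levels are uncertain to that extent. The levels of Tm7sf2 and Fdps are uncertain too, since they overlap Vps51 and Gm43738 on their own strand.

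The 29 genes varied between libraries of the same genotype. WT 5 and KO 4 were the 2 highest libraries in 9 of 29 genes (20.0% of all genes tested) and the 2 lowest in 9 (21.0%). The first were Hmgcs1, Idi1, Fdft1, Sqle, Cyp51, Msmo1, Nsdhl, Sc5d and Soat1, of which 8 are synthesis enzymes. The others were Srebf1, Scap, Mvk, Mvd, Tm7sf2, Abcg1, Apoe, Nr1h2 and Cyp46a1. The KO minus WT difference was therefore also taken within these 2 libraries and within the other 4. Between KO 4 and WT 5, a single library each, it was negative in 20 of 29 genes (median -0.046 on the log2 scale). Between KO 2 and 6 and WT 1 and 3 it was negative in 14 (median 0.0055). It was negative in both in 11 genes and positive in both in 6. The same counts were not taken over all genes, so these do not show a trait of the 29 genes. None of the 29 passed in the fit without WT 5 and KO 4 or in the fit with a term for them.

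The genes of these 2 sets differed in base composition. The GC content of the longest GENCODE M21 transcript was 41.9% to 51.8% (median 44.7%) in the 9 genes highest in WT 5 and KO 4, and 51.0% to 60.6% (median 58.5%) in the 9 lowest there. Idi1 (41.9%), Sc5d (42.9%) and Hmgcs1 (43.1%) were the members poorest in GC, and Nr1h2 (60.6%), Apoe (59.5%) and Scap (59.1%) the richest. Across the 29 genes, Pearson's r between GC content and the deviation of a library from the mean of each gene was -0.75 in WT 5 and -0.81 in KO 4. It was 0.47, 0.65, 0.38 and 0.73 in WT 1, WT 3, KO 2 and KO 6. Over 16913 tested genes with a GC value the same r had the same sign in every library, from -0.44 in WT 5 to 0.41 in KO 6. These are correlations across genes, which are not independent replicates, and the 6 deviations of a gene sum to 0. With transcript length (log2) r was -0.21 to 0.24 over the 29 genes.

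**Figure D3:**
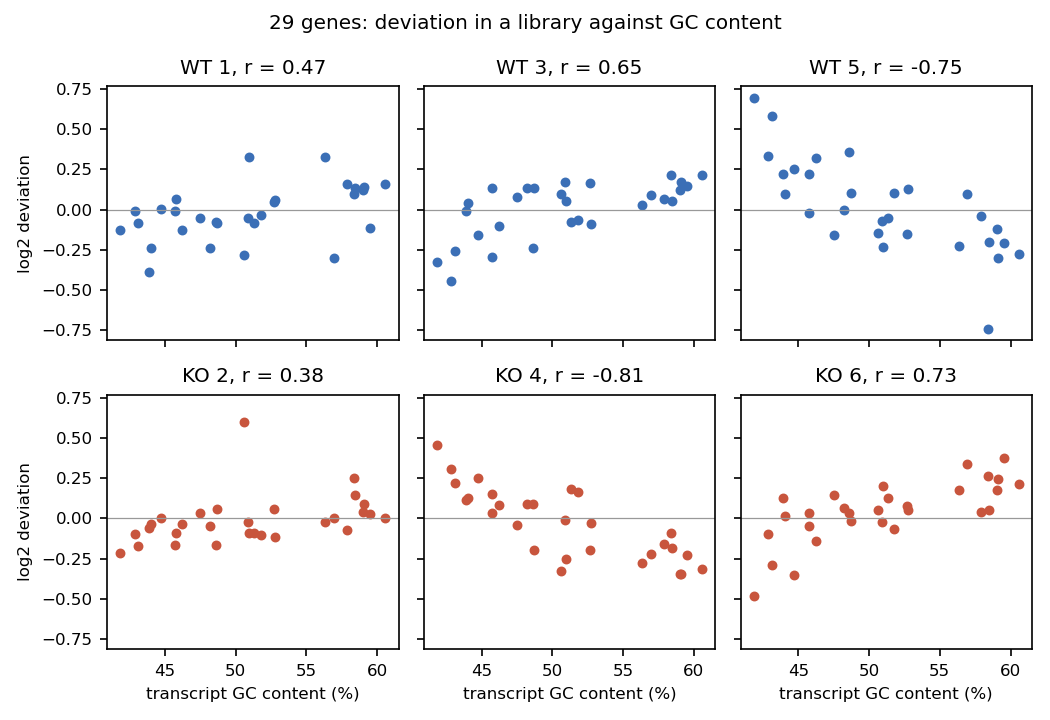
Deviation of each of the 29 genes (log2 CPM minus its mean over 6 libraries) against the GC content of its longest transcript, 1 panel per library. The points slope down in WT 5 and KO 4 and up in the other 4 libraries.

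When each library was given an offset for GC content fitted over all genes, an alternative chosen after the data were seen, the range of a gene over the 6 libraries narrowed in 21 of 29 genes (67.5% of all genes tested). The median range of the 29 went from 0.52 to 0.37 on the log2 scale, and that of all genes from 0.53 to 0.42. After the offsets r with GC content over the 29 genes was -0.35 in WT 5 and -0.38 in KO 4. It was 0.10 to 0.27 in the other libraries, and -0.0037 to 0.0056 over all genes with a GC value. In the 29 genes the relation to GC content was thus weaker but not removed. In WT 5 the deviations of the enzyme genes Idi1, Hmgcs1, Sqle, Cyp51, Sc5d and Msmo1 were 0.70, 0.58, 0.36, 0.32, 0.33 and 0.25 before and 0.51, 0.43, 0.34, 0.25, 0.17 and 0.14 after the offsets. In KO 4 they were 0.46, 0.22, 0.086, 0.084, 0.31 and 0.25 before and 0.28, 0.079, 0.067, 0.0038, 0.16 and 0.14 after. These 6 genes thus remained above their means in WT 5, and in KO 4 the deviations of Hmgcs1, Sqle and Cyp51 were close to 0. The enzyme genes Nsdhl and Fdft1 were also highest in WT 5 and KO 4. Nsdhl went from 0.22 to 0.14 in WT 5 and from 0.15 to 0.064 in KO 4. Fdft1 rose with the offsets, from 0.11 to 0.16 in WT 5 and from 0.16 to 0.21 in KO 4. Srebf1 went from -0.74 to -0.52 in WT 5 and turned from -0.089 to 0.092 in KO 4. Nr1h2 went from -0.28 to -0.016 and from -0.31 to -0.10 in these libraries, and Scap from -0.30 to -0.066 and from -0.35 to -0.15. Srebf1, with a GC content of 58.4%, kept a larger deviation in WT 5 than these other GC-rich genes. The genes named here were picked after their values were seen. Whether base composition or the animals themselves set these deviations was not tested. With the offsets 0 of 29 genes passed (0.128% of all genes) and 0 had an unadjusted p under 0.05 (5.85%), the smallest being that of Srebf2 (log2 fold change -0.15, unadjusted p = 0.0567, edgeR).

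**Figure D4:**
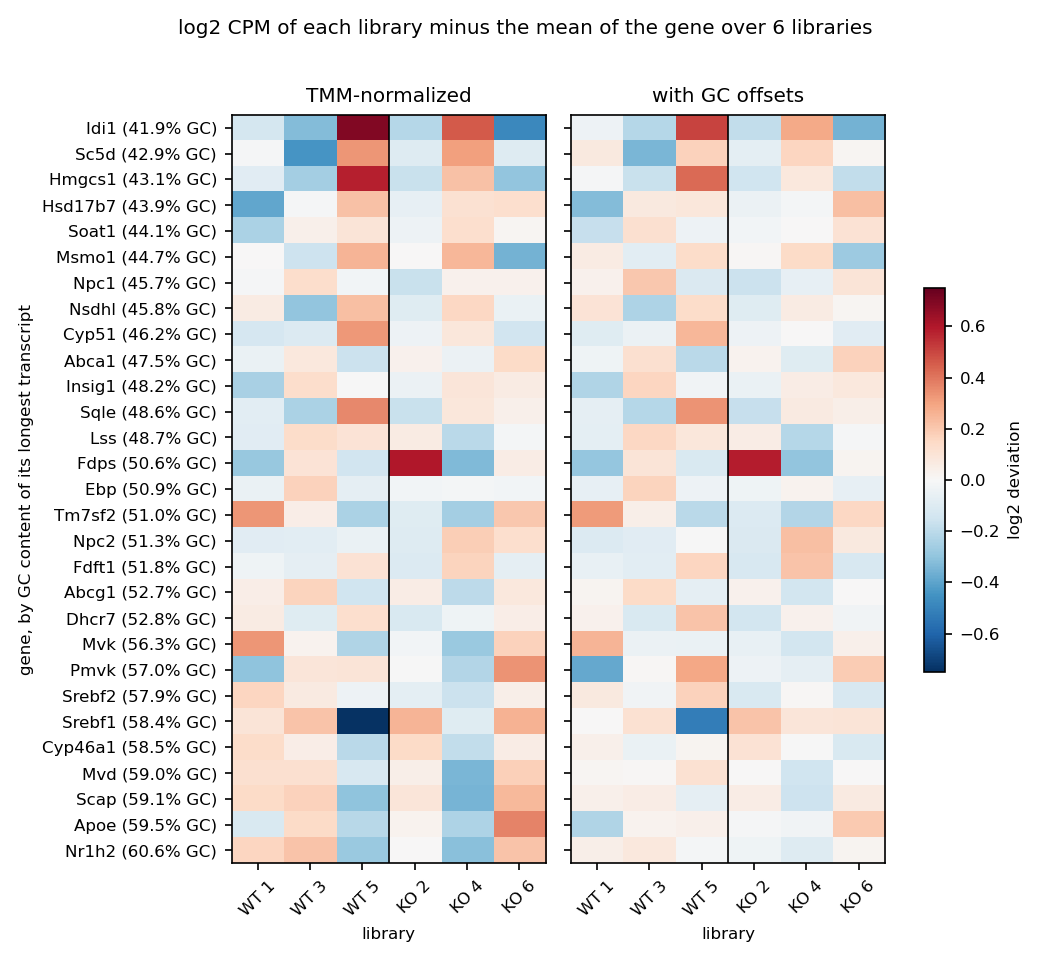
Log2 CPM of each library minus the mean of the gene over 6 libraries, for the 29 genes ordered by transcript GC content (poorest at the top), as normalized by TMM (left) and with GC offsets (right); the black line parts WT from KO. On the left WT 5 and KO 4 are mostly red in the upper rows and blue in the lowest rows; on the right the contrast is paler, and Idi1 and Hmgcs1 stay red and Srebf1 blue in WT 5.

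Other genes of the system were read from 3 lists drawn up by name, of which 46 of 48 genes could be tested and 0 passed an adjusted p of 0.05 by edgeR, DESeq2 or limma-voom. An unadjusted p under 0.05 was found in 2, 1 and 2 of the 46 by these tools (4.35%, 2.17% and 4.35%). The shares of all genes were 2.75%, 1.40% and 2.92%, that of DESeq2 being over unfiltered genes. With the GC offsets it was found in 7 of 46 (15.2%, beside 5.85% of all genes): Apod and Me1 with a positive fold change, and Stard4, Scarb1, Lrp1, Fasn and Scd1 with a negative one, none of which passed adjustment (edgeR). Fasn, the fatty acid synthase, and the others outside the naming rule are named because of their values. Among other sterol synthesis and SREBP2 pathway genes 7 of 11 fold changes were positive (median 0.017). Pgrmc1, a heme-binding partner of sterol enzymes, and Mbtps1, the protease that cleaves SREBPs first, were the most abundant (log2 fold changes 0.017 and -0.0073). Mbtps2, the protease of the next cleavage, was farthest above 0 (0.12, SE 0.14). Stard4, a sterol carrier and SREBP2 target, was farthest below: it was at 58.7, 58.8 and 69.8 CPM in WT 1, 3 and 5, against 55.4, 58.4 and 48.6 CPM in KO 2, 4 and 6 (log2 fold change -0.20, SE 0.12, edgeR adjusted p = 1.0). Every KO library lay below every WT library, by 58.7 against 58.4 CPM at the nearest. Such an order was found in 3 of the 46 genes (6.52%, beside 3.68% of all genes tested).

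Fatty acid synthesis genes driven by SREBP1 had 5 of 12 positive fold changes and a median of -0.016. Scd2, the main desaturase of the brain, was at 2054 ± 153 CPM for WT against 2002 ± 100.1 CPM for KO (SD, n = 3 each; log2 fold change -0.036). Scd1 was farthest below 0 (-0.17, SE 0.13) and the malic enzyme Me1 farthest above (0.23, SE 0.12). Of other transport and turnover genes 14 of 23 were positive (median 0.022), and 2 had an unadjusted p under 0.05. These were Apod, a lipocalin that carries lipids (164 ± 13.8 CPM for WT against 202 ± 4.79 CPM for KO, mean ± SD, n = 3 each; log2 fold change 0.30), and Scarb1, a lipoprotein receptor (11.5 ± 1.25 CPM for WT against 8.92 ± 0.565 CPM for KO; -0.37), both with an edgeR adjusted p of 1.0. The groups did not overlap in either, KO lying higher for Apod and lower for Scarb1, and Apod was named after its values were seen. Of the 46 tested genes of these lists, all KO libraries lay above all WT libraries in 1 (2.17%) and below them in 3 (6.52%). The shares over all genes tested were 3.58% and 3.68%. Lrp1, a receptor for apolipoprotein E, and Abca2, a lipid transporter of myelinating cells, were the most abundant. They had log2 fold changes of -0.11 and 0.020. The lipase gene Lpl was farthest above 0 (0.70, SE 0.36), on few counts. It had 17, 18 and 22 counts in WT 1, 3 and 5, against 40, 37 and 19 in KO 2, 4 and 6. In CPM, KO 6 lay within the WT range of Lpl (1.36 CPM, against 1.15 to 1.61 CPM). Ch25h, an interferon-inducible cholesterol hydroxylase, gave 0, 2 and 5 counts in WT 1, 3 and 5, against 5, 5 and 8 counts in KO 2, 4 and 6 and was too low to be tested.

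Markers of cells, those that make and use cholesterol among them, and genes of the interferon response were summed per library. The 17 markers of astrocytes and Bergmann glia summed to 7252 to 7731 CPM for WT against 7583 to 7801 CPM for KO, and the 17 of oligodendrocytes and myelin to 5142 to 6959 CPM for WT against 5519.6 to 6273 CPM for KO, overlapping in both cases. The sum of Purkinje cell markers overlapped too (8883 to 9986 CPM for WT against 9308 to 10637 CPM for KO), as did that of endothelial cells and meninges (904 to 1220.0 CPM for WT against 1210.3 to 1373 CPM for KO) and that of choroid plexus (177 to 824 CPM for WT against 665 to 2007 CPM for KO). The sums of granule cells (9189 to 9551 CPM for WT against 8595 to 8991 CPM for KO), microglia (142 to 154 CPM for WT against 175 to 228 CPM for KO) and the interferon response (63.3 to 72.7 CPM for WT against 199.9 to 257 CPM for KO) did not overlap between genotypes. No marker of these lists was at 0 in any library. Fold changes were positive in all 16 choroid plexus markers (median 1.39 on the log2 scale) and in 0 of 14 granule cell markers. The counts were 14 of 17 for astrocytes, 6 of 17 for oligodendrocytes and 13 of 16 for Purkinje cells. For endothelial cells, microglia and the interferon response they were 13 of 15, 14 of 16 and 20 of 20 (48.8% of all genes). By edgeR 7 of the interferon list passed adjustment (0.0467% of all genes) and 0 of any other list. The part of these sums in the fold changes of the 29 genes was not tested. The most abundant markers were Aldoc, Mbp, Itpr1, Snap25, Csf1r, Ttr, Ptgds and Ifi27, with log2 fold changes of 0.078, 0.080, 0.10, -0.036, 0.19, 1.76, 0.33 and 1.60.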

How the data were processed

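Per the labels' protocols, TRIZOL was used for the RNA of 6 cerebella and a company prepared the libraries in house. The submitters' processing notes name HISAT2, DESeq2 and GRCm38.p6 without versions; for the counting program, its strand setting and its treatment of reads with several matches, no source used here gives details. The deposited table holds the authors' raw counts per gene, the authors' FPKM per library, the authors' mean normalized count per group (a signal, not used here) and their comparison as log2 fold changes with p-values and adjusted p-values.

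The test of the deposited counts was that of edgeR 4.0.16 (R 4.3.3; TMM, filterByExpr, quasi-likelihood F test, Benjamini-Hochberg over 17142 genes). CPM are TMM-scaled, and 1 count was worth 0.0629 to 0.0733 CPM. The totals were of about equal size, and the precision of single libraries was not examined otherwise. Alternatives were DESeq2 1.42.0, limma 3.58.1 (voom), other normalizations, no filter, each library left out, WT 5 and KO 4 left out or given a term, and, chosen after the data were seen, offsets for GC content (loess, span 0.5). GC content is that of the longest GENCODE M21 transcript. Promoter windows are RefSeq's.

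The 29 genes, the 3 lists of other pathway genes and the marker lists were chosen with earlier results of these data known. All 29 genes were named; of each other list, any gene that passed, or else the 2 with the highest mean CPM and the tested gene farthest from 0 in each direction; of each marker list, the most abundant gene. Apod, Ch25h and Fasn fall outside this rule and were named after their values were seen. One listed gene, Faxdc2, was not matched by name, and single values of another are not reported here.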

Additional observations from a re-analysis of the deposited data

How the results depend on the processing

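Under all 16 alternatives 0 of the 29 genes passed an adjusted p of 0.05, the lowest adjusted p being 0.797 for Srebf1 with a term for WT 5 and KO 4, and 10 to 16 of the 29 fold changes were positive. All 464 single values moved by less than 1 SD of the replicates. Leaving out 1 of 3 libraries can hardly move a value further, so this was not a test of stability. The sign changed in 23 of 29 genes under at least 1 alternative, while Srebf2, Lss, Dhcr7, Abca1, Npc1 and Npc2 kept theirs. The median log2 fold change of the 29 genes was -0.042 with all libraries and 0.0095 without WT 5 and KO 4. With 1 library left out it ran from -0.040 (without KO 6) to 0.056 (without WT 5), with 0.021 without KO 4. For the 17 synthesis enzymes it ran from -0.11 (without WT 3) to 0.089 (without WT 5), and for the 6 genes of the mevalonate arm from -0.091 to 0.13 (without WT 5); the causes were not tested. Genes passing over the whole table numbered 8 with all libraries, 0 without WT 1 or without WT 3, 28 without WT 5, 2 without KO 2, 17 without KO 4, 3 without KO 6, 34 with the term, 40 without both libraries, 142 without the filter, 22 with GC offsets and 38 by DESeq2. At 9 to 21 counts per library, Fdps had too few counts for a narrow interval, and why it had so few was not tested. No paired analysis was possible because the labels give the WT and KO animals no number in common.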
